A study of Mus musculus with 32 samples.

Results

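The 9 genes described here encode transcription factors of the macrophage lineage: Spi1 (the ETS factor PU.1), Cebpa, Cebpb and Cebpd (the C/EBP factors), Irf8, Klf4, Maf (c-Maf), Tfec and Prdm1 (Blimp-1). They were listed by name, with earlier results of these data already known. Each was read by 1 probe set that the array annotation assigns to that gene alone, and they are 9 of the 19938 genes measured in this way.

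Expression was measured in 4 mouse macrophage lines, all marked M-/- in the labels and named after the CSF-1 receptor they carry: WT, Y721F, 3ABY721 and 3AB. Of these receptors, WT and 3ABY721 have Tyr-721, whereas Y721F and 3AB lack it. The shared culture medium was α-MEM with penicillin and streptomycin, 10% newborn calf serum, and CSF-1 of the human recombinant kind at 120 ng/mL. For the time course, cells of the WT and Y721F lines went without CSF-1 overnight and then received it for 0, 20, 60 or 180 min. In the steady-state experiment, each of the 4 lines was either starved of CSF-1 or grown continuously in it. Each of the 16 groups has 2 arrays, from series I and series II, which the design text calls biological replicates. Each receptor comes with its own line, the number of clones behind a line is not given in the sources used here, and receptor and line cannot be told apart.

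CSF-1 is the growth factor that keeps macrophages alive and dividing, and its receptor gene, Csf1r, is itself a target of PU.1 and C/EBP factors. PU.1 opens the enhancers of most myeloid genes, C/EBP factors and IRF8 bind beside it, and IRF8, KLF4 and c-Maf each favour the mature monocyte or macrophage over other fates or over continued division. Blimp-1 is a repressor best known from plasma cells that also silences genes in macrophages, and TFEC belongs to the MiT/TFE family, which acts on lysosomal and osteoclast genes.

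The promoters of Irf8 and Prdm1 are shown because these were the members with the widest differences between lines and within 1 hour of CSF-1. The 250 bases before 1 start of each gene are from RefSeq (GRCm38.p6), 5′ to 3′ on the gene's strand, with motif matches in capitals. Irf8 lies at chr8:120736108-120736357 on the plus strand, and its capitals mark GAS elements (TTCNNNGAA, the STAT site). Irf8 has 2 starts, and the window of the other, chr8:120738389-120738638, held no match and is not shown. Prdm1 lies at chr10:44458749-44458998 on the minus strand, and its capitals mark, in order, a FOXO site (TGTTTAC, on the opposite strand), a PU box (GAGGAA) and an AP-1 match (TGANTCA). That AP-1 pattern is loose, as it leaves the middle base open, and the match reads TGAATCA. The Prdm1 start shown lies inside the RefSeq span of the gene, chr10:44437174-44528558, and not at its 5′ end.
Irf8: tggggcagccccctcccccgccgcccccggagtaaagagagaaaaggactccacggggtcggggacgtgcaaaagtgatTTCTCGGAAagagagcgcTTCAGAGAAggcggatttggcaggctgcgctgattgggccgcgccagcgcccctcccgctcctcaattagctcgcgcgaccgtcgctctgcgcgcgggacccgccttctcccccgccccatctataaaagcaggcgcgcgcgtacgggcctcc
Prdm1: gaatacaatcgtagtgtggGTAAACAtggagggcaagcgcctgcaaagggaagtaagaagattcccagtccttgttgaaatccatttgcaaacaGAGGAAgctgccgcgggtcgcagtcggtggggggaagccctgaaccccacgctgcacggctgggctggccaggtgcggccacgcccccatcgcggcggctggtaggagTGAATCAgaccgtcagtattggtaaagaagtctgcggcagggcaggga
The GAS elements of Irf8 begin at -171 and -153 from the start, and the matches in Prdm1 at -231, -156 and -48. Both strands were searched for 7 motifs, and PU boxes overlapped no other match. A GAS match is in 7.02% of 32851 RefSeq windows of this length, a FOXO match in 3.17%, a PU box in 23.3% and an AP-1 match in 6.75%. The other motifs were C/EBP (TTGCNNAA, 9.56%), the IRF element (2.98%) and the E-box (CACGTG, 6.02%), which was found in Klf4. The sequence table held 6 of the 9 members, in 7 windows, and 4 of these windows had no match. A match of letters is a description and not evidence of binding.

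Csf1r read between 12.72 and 13.41 on the log2 scale in the 32 arrays. The lines are named after the CSF-1 receptor they carry, so this signal may include RNA of that receptor, which was not tested. Of the 10 macrophage markers measured, 7, Csf1r among them, were above 8 in every array. The other 3 were not high throughout: Fcgr1 exceeded 8 in 27 arrays (5.99 to 11.92), Mertk in 25 (5.43 to 10.26) and C1qa in 10 (5.94 to 11.13). All 7 dendritic cell, 8 granulocyte, 4 mast cell and 6 lymphocyte markers measured stayed at or below 8 in every array, as did 6 of 7 fibroblast markers, with Pdgfra the exception at up to 9.64. Of 7 osteoclast markers, Ctsk was above 8 in every array (12.08 to 13.36), Dcstamp and Atp6v0d2 in 31, Acp5 in 28 and Ocstamp in 3, and Calcr and Mmp9 in none. Over all genes, the arrays of a group had a Pearson r of 0.986 to 0.996. The lowest value of any member, 5.26, lay above the 20th percentile of gene means, 4.87. Prdm1 (5.26 to 7.70) and Cebpd (5.41 to 7.76) nevertheless stayed below 8 in all 32 arrays. At 60 min in WT, Prdm1 read 5.95 and 5.82 and Cebpd 6.29 and 6.24. Those values lie within the range of the dendritic cell markers, 3.83 to 7.19. The experiments stood apart: starved WT cells read 0.95 higher for Spi1, 1.50 higher for Cebpd and 1.72 higher for Tfec in the time course than in the steady-state experiment, and Cebpb differed by -1.10, so levels are compared only within an experiment.

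Prdm1 and Cebpd fell within 1 hour of CSF-1 in WT cells. A change is called where limma's adjusted p was under 0.05 and the fold above 1.5. In WT series I and II, the log2 signal of Prdm1, which encodes a repressor of other regulators, was 7.30 and 7.42 at 0 min, 7.45 and 7.31 at 20 min, 5.95 and 5.82 at 60 min, and 6.35 and 6.35 at 180 min. The 0 and 20 min arrays overlapped, and all 60 and 180 min arrays lay below them. The change from 0 min was -1.48 (SE 0.20, 2.78-fold, adjusted p = 0.00679) at 60 min and -1.01 (SE 0.20, adjusted p = 0.0316) at 180 min. From 20 to 60 min the change was -1.50 (SE 0.20, adjusted p = 0.0209). That call was lost after quantile normalization and in 1 fit of both experiments (adjusted p up to 0.141). The change stayed between -1.50 and -1.31 in the alternatives other than leaving out an array. The 180 min call was also lost in the 1 fit (adjusted p = 0.12). The rise of 0.46 (SE 0.20) from 60 to 180 min did not pass (adjusted p = 0.893), although these arrays did not overlap, and no member was called in that interval, against 0.0251% of all genes.

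Cebpd, a C/EBP factor known as an early response gene of inflammation, was 7.76 and 7.43 at 0 min in WT, 7.39 and 7.14 at 20 min, 6.29 and 6.24 at 60 min, and 6.78 and 6.80 at 180 min. Its arrays at 20, 60 and 180 min all lay below those at 0 min. The change at 60 min was -1.33 (SE 0.22, 2.51-fold, adjusted p = 0.0224), and that at 180 min, -0.80 (SE 0.22), was called only with the series as a block (adjusted p = 0.0911 without and 0.0285 with it). At 60 min these were 2 of 9 members called against 0.632% of all genes, at 180 min 1 of 9 against 2.16%, and from 20 to 60 min 1 of 9 against 0.115%. At 20 min no member was called, against 0.160% of all genes. The Cebpd call was lost when either 0 min array or the series I array of 60 min was left out (adjusted p up to 0.249). The Prdm1 call at 60 min was lost without either 0 min array (adjusted p up to 0.0667), that at 180 min without any of its 4 arrays (up to 0.236), and that from 20 to 60 min without any of its 4 arrays (up to 0.243). The changes themselves stayed between -1.50 and -1.17 for Cebpd, and between -1.54 and -1.41 for Prdm1 at 60 min, -1.07 and -0.95 at 180 min, and -1.56 and -1.42 from 20 to 60 min.

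Klf4, a zinc finger factor of monocyte differentiation, was 8.57 and 8.31 at 0 min in WT, 8.84 and 8.90 at 20 min, 8.86 and 9.32 at 60 min, and 8.37 and 8.52 at 180 min. In Y721F it was 8.36 and 8.40 at 0 min, 7.87 and 8.52 at 20 min, 9.16 and 9.23 at 60 min, and 8.47 and 8.37 at 180 min. The 60 min arrays lay above the 0 min arrays in both lines, and the 180 min arrays overlapped those at 0 min. The difference at 60 min was 0.65 (SE 0.20) in WT and 0.82 (SE 0.20) in Y721F, and neither passed (adjusted p = 0.212 and 0.263, or 0.0549 and 0.0622 with the block). From 20 to 60 min in Y721F it was 1 (SE 0.20, adjusted p = 0.254), and from 60 to 180 min it was -0.78 (SE 0.20, adjusted p = 0.376). No member was called in either interval, against 0.0502% and 0.0301% of all genes.

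Same-numbered arrays of a line deviated together across the time course. For the members, the time-course fit with the series as a block is therefore given wherever it changes a call. Calls of the listed genes are from the fit without the block unless it is named. With the block, Maf (-0.89, adjusted p = 0.0427), Irf8 (-0.68, adjusted p = 0.0488) and Cebpb (0.62, adjusted p = 0.0401) also passed at 60 min in WT, where 3.74% of all genes did. At 180 min Irf8 (-0.76, adjusted p = 0.0178) passed beside Cebpd, against 7.81% of all genes. Without the block their adjusted p values were 0.470, 0.426, 0.419 and 0.274. Irf8, a partner of PU.1 that directs progenitors to monocytes, differed between the series. Its WT series I arrays ran 10.32, 9.79, 9.39 and 9.59 over the 4 times and its series II arrays 9.56, 9.28, 9.13 and 8.77, so series I was higher at every time. Maf in WT behaved alike, with 9.16, 8.57, 7.78 and 8.35 in series I and 7.83, 7.52, 7.43 and 7.53 in series II. Cebpb, the C/EBP factor of macrophage activation, was 8.55 and 9.22 at 0 min and 9.31 and 9.71 at 60 min, with no overlap between the times.

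In Y721F no member was called at 20, 60 or 180 min, against 0.0802%, 0.176% and 0.261% of all genes. With the block 2 members passed at 180 min, against 5.39% of all genes: Maf (-0.99, adjusted p = 0.0212) and Irf8 (-0.87, adjusted p = 0.0157). Y721F Maf went from 8.0 and 7.98 at 0 min to 6.59 and 7.41 at 180 min, and Y721F Irf8 from 8.73 and 8.84 to 7.62 and 8.21, both without overlap. Prdm1 in Y721F was 7.11 and 7.48 at 0 min, 7.48 and 7.70 at 20 min, 7.30 and 6.78 at 60 min, and 6.94 and 7.49 at 180 min. Its 60 min arrays overlapped those at 0 min, and the change was -0.25 (SE 0.20, adjusted p = 0.999). Cebpd in Y721F began at 7.28 and 6.48, was 6.26 and 6.41 at 60 min and 5.99 and 6.29 at 180 min. The 180 min value was -0.74 relative to 0 min (SE 0.22, adjusted p = 0.161).

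The difference between the responses of the lines was tested as its own contrast, Y721F minus WT. For Prdm1 it was 1.22 (SE 0.29, unadjusted p = 0.00131, adjusted p = 0.999) at 60 min and 0.93 (SE 0.29, adjusted p = 1) at 180 min, and for Cebpd at 60 min it was 0.78 (SE 0.32, adjusted p = 0.999). With the block the adjusted p of Prdm1 at 60 min was 0.521. No member was called at any time, against 0% of all genes in limma's fit, in which 810, 640 and 277 genes had an unadjusted p under 0.05 at 20, 60 and 180 min. The smaller Prdm1 change in Y721F was therefore not shown to differ from that in WT after adjustment. At 0 min no member was called between the lines, against 0.727% of all genes. Irf8 read -1.15 (SE 0.31) in Y721F against WT there and passed only with the block (adjusted p = 0.161 without and 0.00219 with it, where 3.99% of all genes were called). That block is the series within a line, so it leaves out the spread between series from a comparison of lines.

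Spi1, Tfec and Cebpa had no called change in the time course. Spi1 kept between 11.72 and 12.01 over the 16 arrays. Tfec lay between 10.57 and 11.33, and the highest value was the series I array of Y721F at 60 min. Cebpa in WT was 9.16 and 8.17 at 0 min and 9.24 and 7.70 at 180 min, a gap of 1.54 between series that is wider than any of its differences between times.

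**Figure D1:**
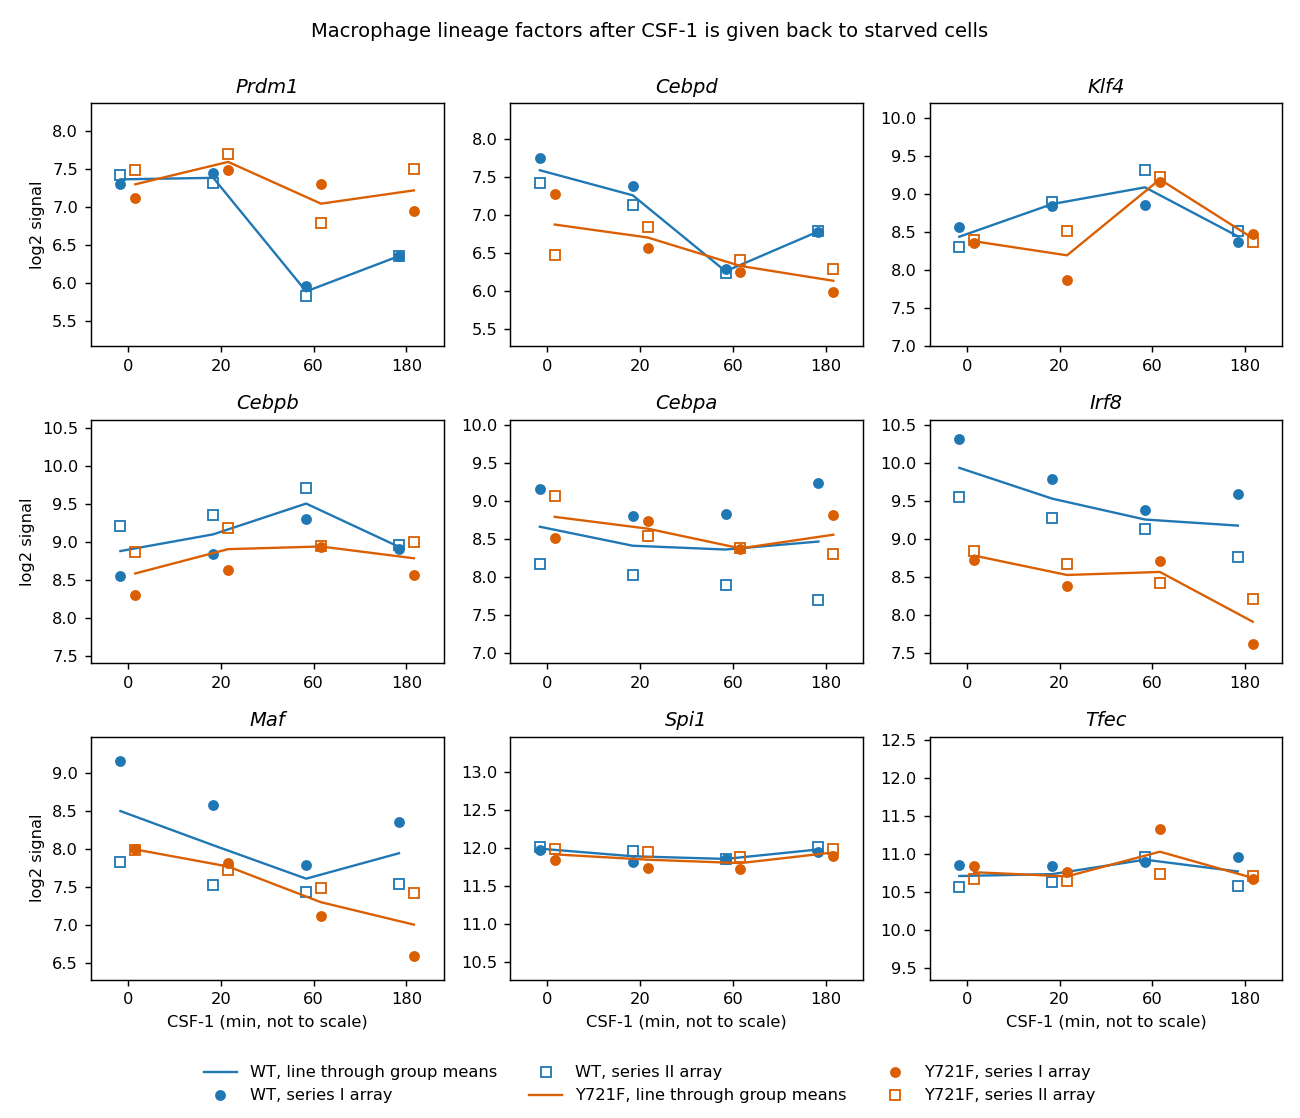
Log2 signal of the 9 genes (vertical axis) at 0, 20, 60 and 180 min after CSF-1 was given back (horizontal axis, not to scale), 1 point per array, WT in blue and Y721F in orange, lines through group means. Prdm1 in WT drops from 7.30 and 7.42 at 0 min to 5.95 and 5.82 at 60 min, and Spi1 stays between 11.72 and 12.01.

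Cells grown in CSF-1 were compared with starved cells of the same line in the steady-state experiment. Of the 36 changes (9 genes in 4 lines), 35 were below 0, and Klf4 in Y721F at 0.54 (SE 0.32, adjusted p = 0.352) was the exception; the counts per line were the same under quantile normalization and with equal array medians. The median over the members was -0.53 in WT, -0.41 in Y721F, -0.56 in 3ABY721 and -0.48 in 3AB, and over all genes it was -0.03, 0, 0 and -0.01. Called were 3 of 9 members in WT, against 5.32% of all genes, and 2 of 9 in Y721F, against 4.94%. No member was called in 3ABY721, against 1.41% of all genes, or in 3AB, against 0.687%. Macrophage markers fell in the same comparisons: of the 10, 4 were called lower in WT, 5 in Y721F, 2 in 3ABY721 and 1 in 3AB, none was called higher, and the list medians were -0.59, -0.77, -0.58 and -0.38. Their part in the members' changes was not tested.

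Irf8 read lower in the grown arrays than in the starved arrays of each line. Its values in WT were 10.19 and 9.84 starved and 9.48 and 8.88 grown, with a change of -0.83 (SE 0.22, 1.78-fold, adjusted p = 0.0388). In Y721F they were 8.21 and 8.51 starved and 6.77 and 7.40 grown, with a change of -1.28 (SE 0.22, adjusted p = 0.00386). In 3ABY721 they were 9.35 and 9.30 against 8.38 and 8.66, and in 3AB 9.95 and 10.04 against 9.24 and 9.14. Starved and grown arrays overlapped in none of the 4 lines. The change was -0.80 (SE 0.22) in 3ABY721 and in 3AB alike, and neither passed (adjusted p = 0.101 and 0.150). With the series as a block both did (adjusted p = 0.0222 and 0.0361). The WT call was lost on leaving out any of 11 of the 16 arrays (adjusted p up to 0.231, change -1.13 to -0.53), and the Y721F call only without the starved series II array (adjusted p = 0.0726).

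Cebpa, which commits progenitors to the granulocyte and monocyte lineage, was 8.61 and 8.49 in starved Y721F and 7.59 and 7.01 in grown Y721F. The change of -1.25 (SE 0.22, 2.38-fold, adjusted p = 0.00397) was called and stayed so with any array left out. The call was lost in 1 fit of both experiments (adjusted p = 0.0685). In WT Cebpa was 8.49 and 8.91 starved and 8.22 and 7.63 grown, and the change of -0.77 (SE 0.22) had an adjusted p of 0.0500 that did not fall under the threshold. The changes of -0.76 in 3ABY721 and -0.65 in 3AB did not pass (adjusted p = 0.121 and 0.248), and in all 4 lines the arrays of the states did not overlap.

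Maf, a large MAF factor of mature macrophages, was 8.61 and 8.30 in starved WT and 7.49 and 7.78 in grown WT. Its change of -0.82 (SE 0.17, 1.77-fold) was called (adjusted p = 0.0113) and was lost without the series I array of either state (adjusted p up to 0.119). In the other lines the Maf change lay between -0.67 and -0.46 with no overlap between states, and none passed. Prdm1 was 7.43 and 6.98 in starved WT and 6.20 and 5.26 in grown WT, a change of -1.48 (SE 0.40, adjusted p = 0.0426). That call was lost on leaving out any of 13 of the 16 arrays (adjusted p up to 0.220, change -1.94 to -1.0). Grown Y721F arrays of Prdm1 read 5.45 and 7.11, the widest gap of the gene in 16 groups at 1.66, and those of Klf4 read 8.01 and 9.23.

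Cebpb, Cebpd, Spi1 and Tfec passed in no line. Cebpb measured -0.73 (SE 0.19, adjusted p = 0.0930) in 3ABY721 and -0.43 to -0.41 elsewhere, with no overlap in any line. Spi1 lay between -0.42 and -0.17 and also did not overlap in any line, while every value stayed between 10.60 and 11.30. Cebpd ran from -0.53 to -0.29 and Tfec from -0.39 to -0.05. The difference of the growth effect between Y721F and WT was called for no member, against 0.0903% of all genes, and was widest at 0.98 for both Klf4 (SE 0.45, adjusted p = 0.383) and Prdm1 (SE 0.56, adjusted p = 0.488). Between 3AB and 3ABY721 it was also called for none, against 0.00502% of all genes.

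**Figure D2:**
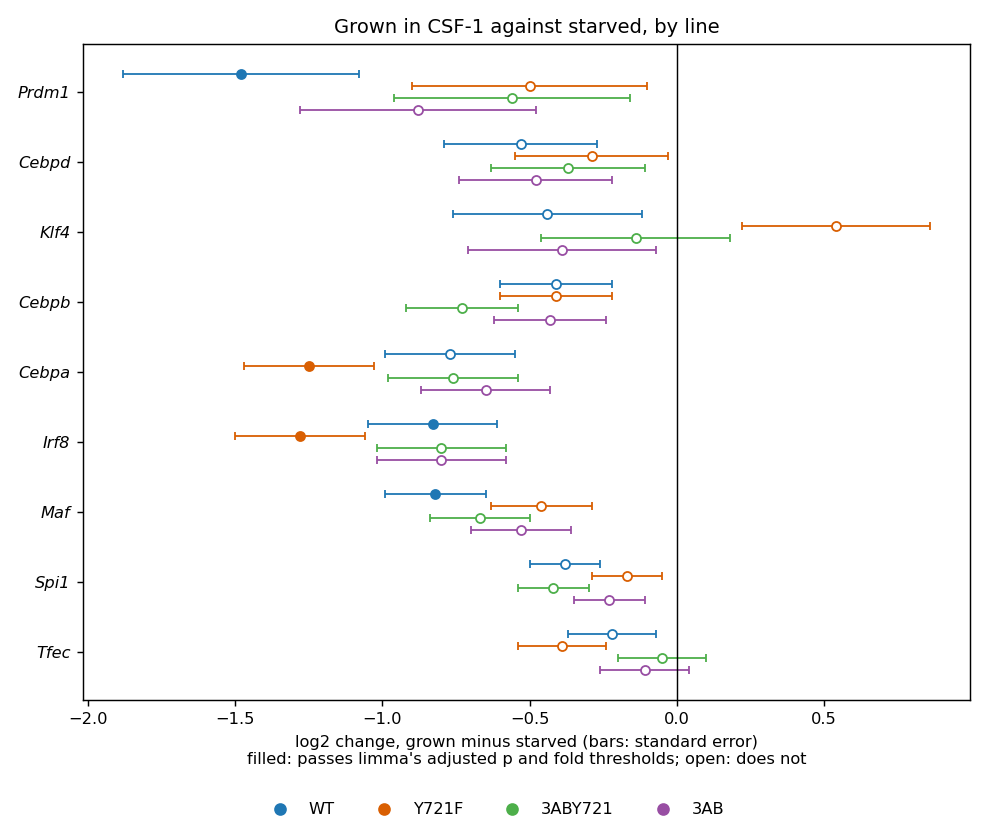
Log2 change from starved to CSF-1-grown cells (horizontal axis) for the 9 genes in each line, with bars for the standard error; filled points passed limma's thresholds. All points but Klf4 in Y721F (0.54) lie left of 0, and the filled points are Prdm1, Irf8 and Maf in WT and Cebpa and Irf8 in Y721F.

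Lines lacking Tyr-721 were set against lines that have it in 2 pairs, Y721F against WT and 3AB against 3ABY721. Irf8 gave the widest difference among the members. In the grown state it was 9.48 and 8.88 in WT, 6.77 and 7.40 in Y721F, 8.38 and 8.66 in 3ABY721, and 9.24 and 9.14 in 3AB. Y721F lay below every other line, WT and 3AB overlapped, and 3ABY721 was between. Y721F minus WT was -2.10 (SE 0.22, 4.27-fold, adjusted p = 2.59e-05) grown and -1.65 (SE 0.22, 3.15-fold, adjusted p = 0.000206) starved. Both calls held with any array left out (-2.41 to -1.78 and -1.83 to -1.48). 3AB minus 3ABY721 had the opposite sign, 0.67 (SE 0.22) in each state, and did not pass (adjusted p = 0.223 grown and 0.318 starved).

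Maf was 8.61 and 8.30 in starved WT, 7.59 and 7.5 in Y721F, 7.75 and 7.84 in 3ABY721, and 8.30 and 8.49 in 3AB. WT and 3AB overlapped, and the arrays of Y721F and 3ABY721 lay below both. Y721F minus WT was -0.91 (SE 0.17, adjusted p = 0.00244) starved, a call that held with any array left out, and -0.55 (SE 0.17, adjusted p = 0.0507) grown. The starved call was lost in 1 fit of both experiments (adjusted p = 0.0763). 3AB minus 3ABY721 was 0.60 (SE 0.17, adjusted p = 0.186) starved and 0.74 (SE 0.17, adjusted p = 0.0512) grown.

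Cebpb was lower in Y721F than in WT in both states. Starved arrays read 10.04 and 9.93 in WT and 9.31 and 9.36 in Y721F. The call, at -0.65 (SE 0.19, adjusted p = 0.0342), was lost without any of these 4 arrays (adjusted p up to 0.131). Grown arrays read 9.89 and 9.26 in WT and 8.65 and 9.21 in Y721F, and gave -0.64 (SE 0.19, adjusted p = 0.0493). The grown call was lost on leaving out any of 14 of the 16 arrays (adjusted p up to 0.418, difference -0.96 to -0.33). Both calls were also lost after quantile normalization and in 1 fit of both experiments. In these the adjusted p was up to 0.206 starved and 0.114 grown. In the other pair Cebpb differed by -0.20 grown and -0.49 starved, and neither passed.

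Called were thus 2 of 9 members for Y721F against WT grown, against 7.88% of all genes, and 3 of 9 starved, against 11.1%. None was called for 3AB against 3ABY721 grown or starved, against 1.18% and 0.617%. In the starved state all 9 members read lower in Y721F than in WT, but only 6 did so after quantile normalization. Spi1 differed by 0.11 grown and -0.10 starved (SE 0.12), and Tfec by -0.26 and -0.09 (SE 0.15). Cebpa measured -0.62 (SE 0.22, adjusted p = 0.0864) grown and -0.15 starved, and Prdm1, Klf4 and Cebpd did not pass in either state, the Klf4 difference in starved cells being -0.71 (SE 0.32, adjusted p = 0.140). The difference between the pairs was tested as a contrast of its own after their opposite signs had been seen. It was called for 3 of 9 members grown, against 7.99% of all genes, and for 2 of 9 starved, against 10.2%, with Irf8 at -2.77 (SE 0.31, adjusted p = 6.73e-05) and -2.32 (SE 0.31, adjusted p = 0.000353).

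The pairs sharing a Tyr-721 status were compared in the same way. 3AB minus Y721F, both without the tyrosine, was called for Irf8 at 2.11 (SE 0.22, adjusted p = 1.49e-05) grown and 1.63 (SE 0.22, adjusted p = 0.000233) starved. Maf was also higher in 3AB, by 0.78 (SE 0.17, adjusted p = 0.00734) grown and 0.85 (SE 0.17, adjusted p = 0.00479) starved. Tfec passed in the grown state at 0.61 (SE 0.15, adjusted p = 0.0195), from 8.64 and 8.40 in Y721F to 9.11 and 9.15 in 3AB. These were 3 of 9 members grown, against 7.87% of all genes, and 2 of 9 starved, against 7.61%. The Maf calls were lost without the series I array of either line (grown, adjusted p up to 0.113) or the series II array of 3AB (starved, 0.0719), and Tfec without 3 of the 4 arrays concerned (adjusted p up to 0.165). The Tfec call was also lost after quantile normalization (adjusted p = 0.0562). Both Maf calls were lost in 1 fit of both experiments (adjusted p = 0.169 grown and 0.133 starved). 3ABY721 minus WT, both with the tyrosine, was called for none, against 0.256% grown and 1.81% starved; Irf8 measured -0.66 grown and -0.69 starved (SE 0.22, adjusted p = 0.245 and 0.124). These comparisons share their lines with the pairs above and are not independent of them.

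Macrophage markers also moved with the differences between lines, and their part in them was not tested. The mean log2 level of the 10 markers was between 9.72 and 10.83 in the steady-state arrays of Y721F and between 11.02 and 11.96 in those of the other lines. Of the 10, 5 were lower and none higher in Y721F than in WT, grown and starved, against 7.88% and 11.1% of all genes called. Csf1r measured -0.57 (SE 0.12, adjusted p = 0.00670) in grown Y721F against WT, under the fold threshold at 1.48-fold. Its signal may include RNA of the receptor that each line carries. The mean of 7 osteoclast markers was 8.79 to 9.01 in Y721F and 7.65 to 8.76 in the other lines, and 2 were higher in Y721F than in WT in each state. In cultures, fewer cells of a type and less RNA per cell cannot be told apart.

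**Figure D3:**
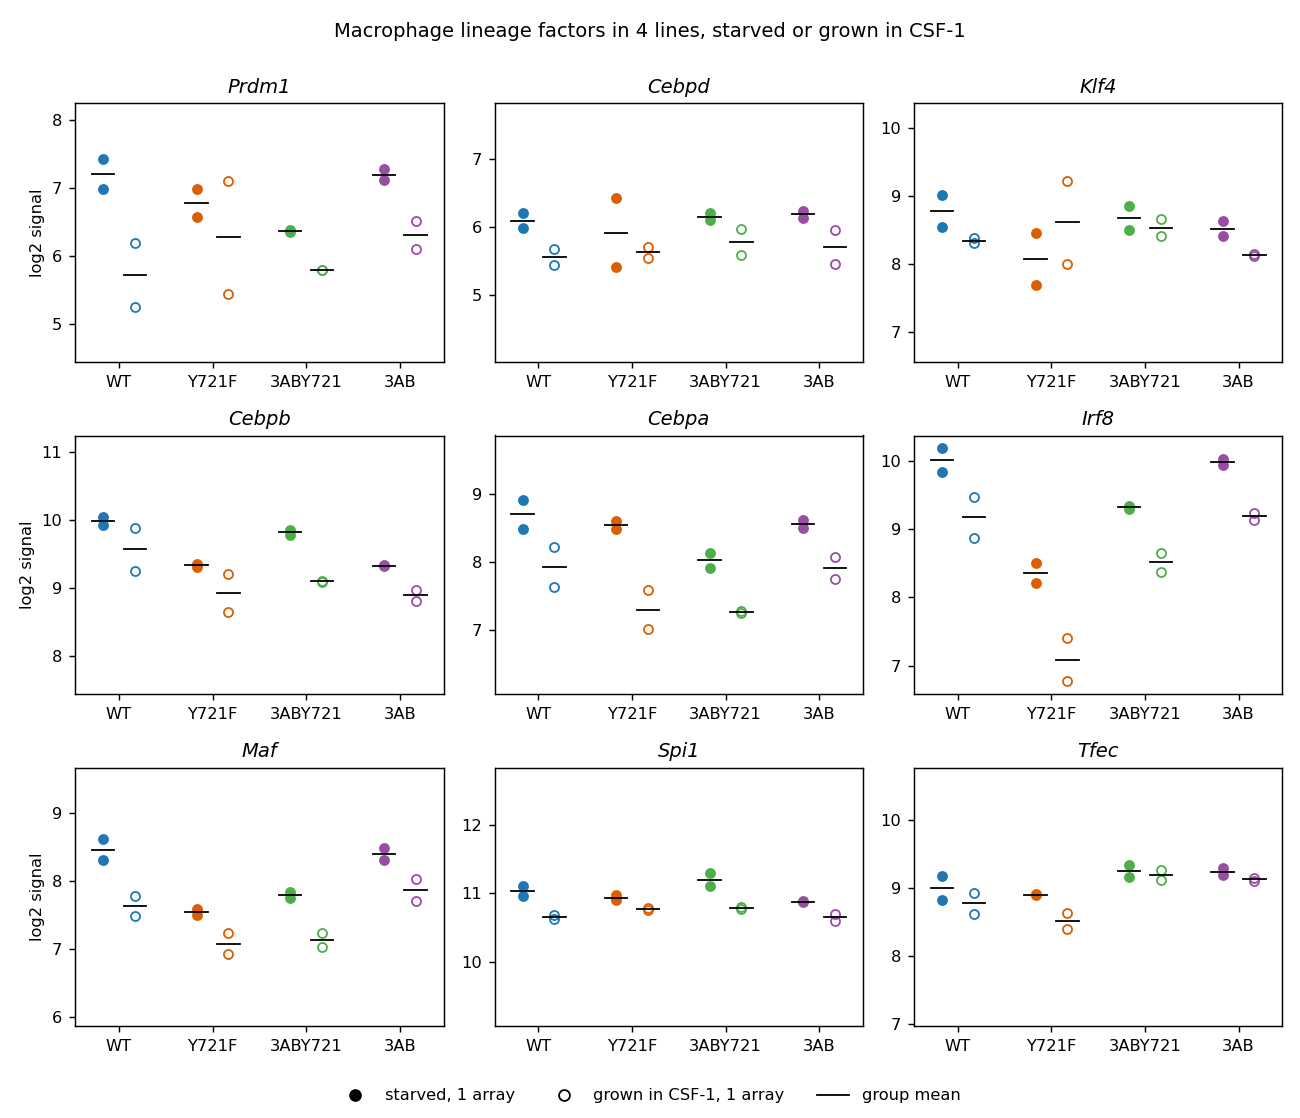
Log2 signal of the 9 genes (vertical axis) in the 4 lines (horizontal axis), 1 point per array, filled for starved and open for grown, with a bar at each group mean. Irf8 in grown Y721F (6.77 and 7.40) lies below all other arrays of the gene.

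**Figure D4:**
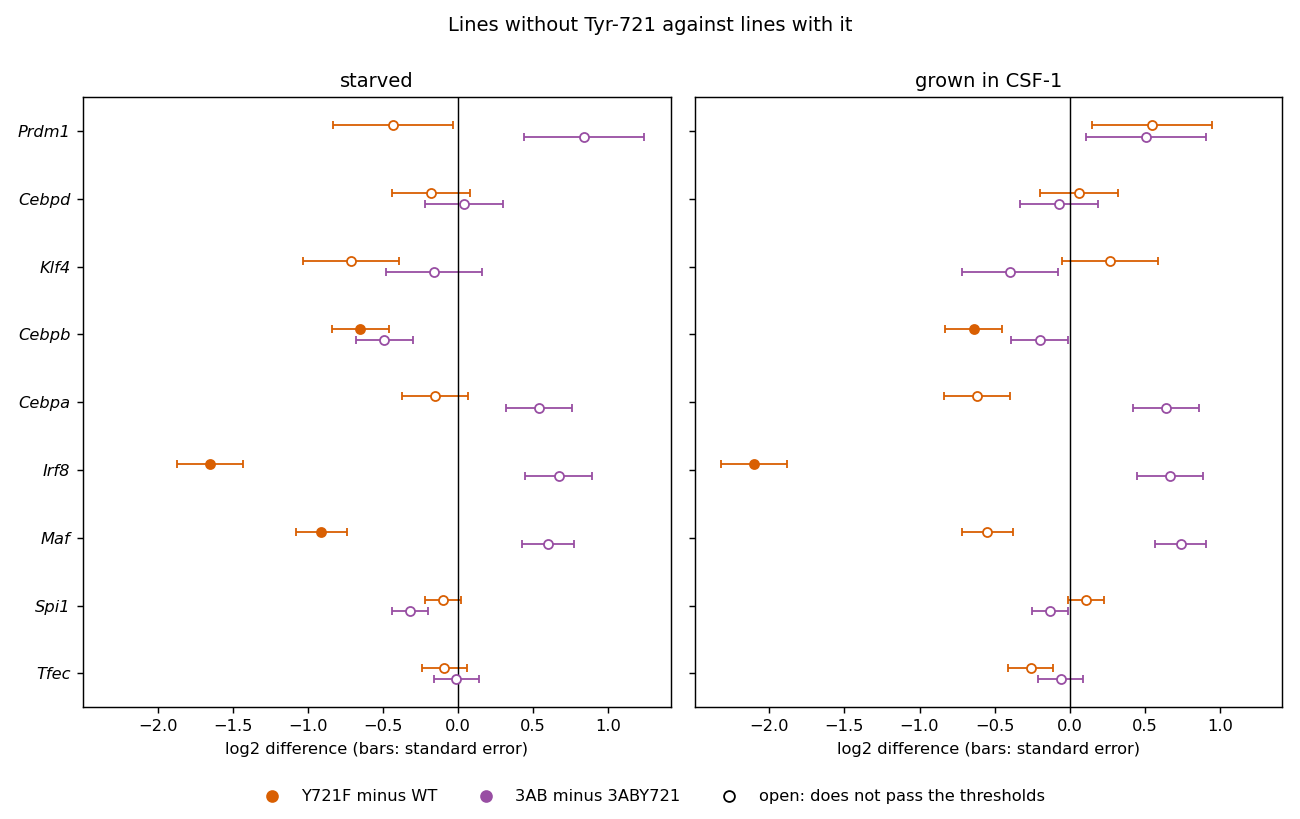
Log2 difference (horizontal axis, bars for the standard error) between lines without and with Tyr-721, for Y721F minus WT and 3AB minus 3ABY721, starved on the left and grown on the right; filled points passed limma's thresholds. Irf8 is at -1.65 and -2.10 in the first pair and at 0.67 in both states of the other pair.

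Genes reported as targets or partners of the factors were followed in 10 lists of 123 genes, of which 118 were measured. Among 11 IRF8 targets, 4 were lower and 1 higher in Y721F than in WT grown, and 4 were lower and none higher starved, with a list median of -0.31 and -0.36 against 0.05 and 0 over all genes. Of all genes, 7.88% were called grown and 11.1% starved. The protease gene Ctsc measured -1.42 (SE 0.22, adjusted p = 0.000831) grown and -1.69 (SE 0.22, adjusted p = 0.00016) starved, and Pml, a nuclear body gene, -0.80 and -1.18 (SE 0.14). The cytokine gene Il18 was lower in the grown state, at -0.99 (SE 0.13, adjusted p = 0.000201). The higher gene was the cell cycle inhibitor Cdkn2b at 0.60 (SE 0.12), which is named here after its value was seen. The survival gene Bcl2l1, which IRF8 is known to repress, is counted among the lower genes in both states. It measured -1.10 grown and -0.98 starved (SE 0.21) in Y721F against WT. As the list holds a repressed gene, its counts and medians are not a reading of IRF8 activity. In 3AB against Y721F grown 4 of the 11 were higher and 1 lower, with Ctsc at 1.91 (SE 0.22) and Cdkn2b at -1.10 (SE 0.12). There 7.87% of all genes were called. Bcl2l1 rose from starved to grown cells in each of the 4 lines, by 1.27, 1.15, 1.58 and 1.54 (SE 0.21) in WT, Y721F, 3ABY721 and 3AB. In WT Bcl2 (0.88, SE 0.15) and Cdkn2b (0.68, SE 0.12) rose too. In Y721F Cdkn2b rose (0.98, SE 0.12) and Il18 fell (-0.76, SE 0.13). The list medians were -0.12, 0.1, -0.02 and -0.13 in the same order of lines. The shares of all genes called were 5.32%, 4.94%, 1.41% and 0.687%.

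Among 10 reported targets of large MAF factors, 4 were lower and none higher in Y721F than in WT in each state, with list medians of -0.96 grown and -0.81 starved. Of all genes, 7.88% were called grown and 11.1% starved. Mertk, a receptor for dying cells, measured -2.78 (SE 0.17, adjusted p = 1.48e-07) grown and -1.75 (SE 0.17, adjusted p = 1.1e-05) starved, and the complement gene C1qb -3.07 and -2.63 (SE 0.69). In 3AB against 3ABY721, 3 were higher grown (C1qc at 3.27, C1qa at 3.24 and Mertk at 1.41) and 2 starved (Mertk at 1.44 and Il10 at 0.73), and none lower. The shares of all genes called were 1.18% grown and 0.617% starved. In 3AB against Y721F, 5 were higher and 1 lower in each state, against 7.87% of all genes called grown and 7.61% starved. C1qb measured 5.18 grown and 4.03 starved (SE 0.69), and the lower gene, Cd5l, -3.15 and -4.22 (SE 0.50). Mertk fell from starved to grown cells in all 4 lines, by 1.79 in WT, 2.81 in Y721F, 1.22 in 3ABY721 and 1.24 in 3AB (changes of -1.79, -2.81, -1.22 and -1.24, SE 0.17). It also fell 180 min after CSF-1, with changes of -1.92 (SE 0.26, adjusted p = 0.0087) in WT and -1.68 (SE 0.26, adjusted p = 0.0364) in Y721F. Of the 10 genes, 2 (C1qa and Mertk) are also on the macrophage marker list.

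Among 22 PU.1 targets, 8 fell and none rose from starved to grown WT cells, with a list median of -0.43 against -0.03 over all genes. The share of all genes called there was 5.32%. The oxidase subunit gene Cybb measured -1.81 (SE 0.34, adjusted p = 0.0066) and the mannose receptor Mrc1 -1.14 (SE 0.23, adjusted p = 0.011). In Y721F 5 fell and 1 rose, against 4.94% of all genes called, with Cybb at -2.89 and Mrc1 at 1.27 (SE 0.23). Y721F against WT gave 5 lower and none higher in each state, led by Cybb (-5.87 grown and -4.79 starved, SE 0.34) and the Fc receptor Fcgr1 (-5.15 and -4.38, SE 0.21). Of all genes, 7.88% were called grown and 11.1% starved. Spi1 itself differed by no more than 0.11 in these comparisons of lines. Of the 22 genes, 6 are also macrophage markers.

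The C/EBP partner Trib1, a pseudokinase that leads to C/EBPα degradation, rose in WT by 2.68 (SE 0.26, adjusted p = 0.00097) at 20 min, 2.44 at 60 min and 1.63 at 180 min, and in Y721F by 1.93 and 2.61 at 20 and 60 min. It was the only called gene of 9 partners at these times, although 2 rose at 180 min in WT with the block, against 7.81% of all genes. Without the block, 0.16%, 0.632% and 2.16% of all genes were called in WT, and 0.0802% and 0.176% in Y721F. Among 13 reported C/EBP targets, 5 of which are granulocyte markers, 1 was called at 60 min in WT, or 2 with the block. The shares of all genes at that time were 0.632% and 3.74%. The called gene was the arginase gene Arg1 at 2.39 (SE 0.31, adjusted p = 0.00457). Of 7 genes reported as repressed by Blimp-1, none rose at 60 min in WT, but 1 rose with the block. Bcl6 on that list, which encodes another repressor, fell (-0.76, SE 0.13, adjusted p = 0.029). Of 8 MAF family and self-renewal factors, Maff at 1.81 (SE 0.29) and Mafk at 0.99 (SE 0.18) rose at that time (3 rose with the block), and none fell. Among 10 other IRF genes or IRF-binding genes, 2 were lower in Y721F than in WT in each state: Irf7 (-0.64, SE 0.18) and Irf5 (-0.63, SE 0.14) grown, and Irf7 (-1.37, SE 0.18) and Irf9 (-0.85, SE 0.12) starved. Of all genes, 7.88% were called grown and 11.1% starved.

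Of 10 MiT/TFE factors and targets, Tfe3, a relative of Tfec, was lower in Y721F than in WT, at -0.59 grown and -0.63 starved (SE 0.14), and no other was called in these comparisons. A count of 1 in 10 is near the share of all genes called, 7.88% grown and 11.1% starved. Of 24 other myeloid factors, 3 rose at 20 min in WT (Egr1 at 5.06, Egr2 at 4.80 and Nr4a1 at 4.62), or 4 with the block, and none fell. Without the block 0.16% of all genes were called at that time. From starved to grown WT cells 1 rose, the ETS factor gene Ets2 (1.18, SE 0.23, adjusted p = 0.00811), and 2 fell, the zinc finger repressor Zeb2 (-1.03, SE 0.14, adjusted p = 0.000992) and Bach1 (-0.91, SE 0.14, adjusted p = 0.00182). There 5.32% of all genes were called. In Y721F against WT 1 was higher and 5 lower grown, led by Bhlhe40 at 1.63 (SE 0.31) and Id2 at -1.20 (SE 0.29), and 1 was higher and 6 lower starved, led by Bhlhe41 at -1.81 (SE 0.52) and Rxra at -1.13 (SE 0.15). The shares of all genes were 7.88% and 11.1%. Runx1, which acts upstream of Spi1 in blood formation, was among the lower genes in both states, at -0.84 and -0.94 (SE 0.18).

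For each member whose group means spanned at least 1, the genes with the most similar pattern over the 16 group means were found by Pearson r, as a description without a test. All points share the lines and the offset between experiments. For Irf8 they were Gpr65 (0.97), Itga4 (0.96) and Ddx60 (0.95), for Maf Tifab (0.94), Ptger2 (0.90) and Casp2 (0.90), and for Prdm1 Mylip (0.91), Dennd4c (0.85) and Tbc1d8 (0.85). Gpr65, Tifab and Mylip kept 0.97, 0.94 and 0.90 after each experiment was centred on its own mean. Cebpa was most like Lpar6 (0.92), Slc9a9 (0.91) and Apobec1 (0.91), and Cebpd most like Arrdc1 (0.95), Wdyhv1 (0.94) and Pisd-ps2 (0.94). Cebpb (Olfr59 at 0.79, Stra6l at 0.78, Anapc11 at 0.77) and Klf4 (Nfil3 at 0.74, Csrnp1 at 0.73, Suco at 0.70) had no gene above 0.80 on this measure; after centring Zc3h12a reached 0.86 with Cebpb and Cdc42ep4 0.83 with Klf4. Spi1 (Sh2b3 at 0.99, Blvrb and Zhx1 at 0.98) and Tfec (Gak, Myo9a and Blvrb at 0.98) had lower values once the offset was taken out. For the genes like Spi1, r was 0.36, -0.20 and 0.35 within the time course, 0.93, 0.81 and 0.67 within the steady-state groups, and 0.83, 0.69 and 0.59 after centring. For those like Tfec it was 0.06, 0.23 and 0.01 within the time course, 0.64, 0.66 and 0.78 within the steady-state groups, and 0.53, 0.60 and 0.66 after centring. Among the members themselves, Maf and Irf8 were most alike after centring (r = 0.87, with 0.86 in the time course and 0.90 in the steady-state groups), followed by Maf and Cebpd (0.79).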

How the data were processed

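Total RNA was hybridised to 32 Affymetrix Mouse Gene 1.0 ST arrays. The authors deposited log2 signals for 35556 probe sets; that scale follows from their range, and how they were background-corrected and normalized, and on which build, is not given in the sources used here. Array medians ran from 5.97 to 6.22. Of 23410 annotated probe sets, 21789 name 1 gene; the brightest of a gene stood for it (19938 genes).

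The 8 groups of each experiment were fitted with lmFit and eBayes of limma 3.58.1 (R 4.3.3), 2 arrays per group, and p values were Benjamini-Hochberg adjusted over all genes within each of 30 comparisons. A call needs adjusted p under 0.05 and a fold above 1.5; "rose", "fell", "higher" and "lower" are used of other genes in that sense. Precision is limited by the number of arrays.

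Deviations of same-numbered arrays from group means correlated at 0.487 to 0.734 in the WT and 0.353 to 0.648 in the Y721F time course, so the numbers pair there. In the steady state they ran from 0.0423 to 0.28, lower but all above 0, with only 1 pair of groups per line. Whether the numbers pair there is not settled. Steady-state calls are from the fit without the block, and those that the block adds are listed below.

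Members and gene lists were chosen with earlier results of these data known. All 9 members are named; of a list, genes among the 4 called with the largest change (Cdkn2b is outside this rule); and the 3 genes most like each member that spans at least 1. The difference between line pairs, likeness after centring and starved groups across experiments were chosen after seeing the data. The alternatives were quantile normalization, equal array medians, a filter at the 40th percentile, mean of probe sets, 1 fit of all arrays, an intensity trend, the cutoff of the design text, the series block and leaving out each array.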

Additional observations from a re-analysis of the deposited data

Results flagged for a closer look

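The difference between the line pairs, (Y721F minus WT) minus (3AB minus 3ABY721), was tested as its own contrast in limma and stood out for 3 members; it was added after seeing that Irf8 had opposite signs in the pairs. In the grown state it was -2.77 (SE 0.31, adjusted p = 6.73e-05) for Irf8, -1.29 (SE 0.24, adjusted p = 0.00372) for Maf and -1.27 (SE 0.31, adjusted p = 0.0206) for Cebpa, 3 of 9 members against 7.99% of all genes. In the starved state it was -2.32 (SE 0.31, adjusted p = 0.000353) for Irf8 and -1.51 (SE 0.24, adjusted p = 0.00132) for Maf, 2 of 9 against 10.2%. The Irf8 and Maf calls held with any array left out, and that of Cebpa was lost without 5 of the 8 grown arrays (adjusted p up to 0.0996). In 1 fit of both experiments the Maf calls (adjusted p = 0.112 grown and 0.0536 starved) and the Cebpa call (0.169) were lost. Each receptor has its own line, so line and receptor cannot be told apart here.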

How the results depend on the processing

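With 2 arrays a group, few calls were stable: of 24 called member changes, 6 kept their call under every alternative run, all of them Irf8 between lines or line pairs, 9 kept it under every alternative other than leaving out an array, 10 with each array left out, and 0 changed sign. The number of members called in the WT time course was 4; it was 2 with both experiments in 1 fit, 10 with the cutoff of the design text (unadjusted p), 9 with the replicate block, and 1 to 5 with 1 array left out. For the Y721F time course it was 0, and 6 with that cutoff, 2 with the replicate block and 0 to 1 with 1 array left out. For the difference of responses it was 0, and 4 with the cutoff. At 0 min between the lines it was 0, and 1 in 1 fit, 2 with the cutoff and 1 with the block. Grown against starved it was 5, and 2 in 1 fit, 13 with the cutoff and 2 to 9 with 1 array left out. For the difference of growth effects it was 0, and 1 with the cutoff and 0 to 2 with 1 array left out. Between lines with and without Tyr-721 it was 5, and 3 after quantile normalization, 2 in 1 fit, 12 with the cutoff and 3 to 9 with 1 array left out. Between the other line pairs it was 5, and 3 in 1 fit, 11 with the cutoff and 3 to 9 with 1 array left out. For the difference of line pairs it was 5, and 2 in 1 fit and 4 to 7 with 1 array left out. The cutoff admits more genes by its construction and could remove no call. The mean of probe sets could not change a member's values, since each member has 1 probe set. The cause of the other shifts was not tested. Under that cutoff 4.14% of all genes passed at 60 min in WT, against 0.632%. The replicate block in the steady state, where pairing of the numbers is not settled, added 5 calls and lost none: Irf8 grown against starved in 3ABY721 (adjusted p = 0.0222) and 3AB (0.0361), Klf4 in starved Y721F against WT (0.0137, from 0.140), Irf8 in starved 3ABY721 against WT (0.045, from 0.124) and Prdm1 in the starved difference of line pairs (-1.26, 0.0439, from 0.168). Equal array medians moved the median of all genes by up to 0.19.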

Other observations

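WT and Y721F were starved in both experiments, which gives each gene a pair of starved levels, as values without a test. In Y721F the time-course level minus the steady-state level was 0.97 for Spi1, 0.97 for Cebpd, 1.86 for Tfec and -0.75 for Cebpb, next to 0.95, 1.50, 1.72 and -1.10 in WT. Irf8 differed by -0.07 in WT and 0.43 in Y721F, and Prdm1 by 0.15 and 0.51. The median over all genes was -0.07 in WT and -0.12 in Y721F, and 4.54% and 8.14% of genes differed by more than 1 either way. Experiment and batch cannot be told apart.

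Bcl6, a repressor that is on the list of other myeloid factors and on that of genes repressed by Blimp-1, fell in WT between 20 and 60 min (-0.96, SE 0.13, adjusted p = 0.0209) and rose between 60 and 180 min, by 1.22 (SE 0.13, adjusted p = 0.00819). In Y721F the latter change was 1.29 (SE 0.13, adjusted p = 0.00333). Myc measured -1.64 grown and -1.93 starved (SE 0.45) in Y721F against WT, and -2.46 (SE 0.45, adjusted p = 0.0183) in starved 3ABY721 against WT.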
